A study of Danio rerio with 54 samples.

Results

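Zebrafish larvae that lack a working nfe2 gene were set against wildtype larvae after both had been dosed with diquat at 96 hours post fertilisation (hpf). The comparison uses the libraries whose labels give diquat and this stage, 3 of the knockout and 3 of the wildtype, which makes 6 of the 54 libraries of the series. Each library held poly(A) RNA from a pool of 30 whole animals, and the full series crossed both genotypes with water, 20 µM diquat or 1 mM tert-butyl hydroperoxide (tBOOH, an organic peroxide) and with dosing from 2, 48 or 96 hpf, in 18 groups of 3 pools. Dosing lasted 4 h and was followed by 4 h in clean medium before freezing, so that the animals named here by 96 hpf were sampled 8 h later by the treatment protocol, although the sample descriptions give 96 hpf itself. Wildtype animals were of the AB strain. The knockout descended from 1 founder deletion made in AB/TL hybrid embryos, and its sample labels give an AB background. Strain and genotype therefore cannot be told apart, and the line is a single allele.

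Nfe2 is a transcription factor of the CNC family of basic leucine zipper proteins, which pair with small Maf proteins and bind antioxidant response elements in front of genes for glutathione transferases, thioredoxin and related enzymes. Its best known relative, Nrf2, is held down by Keap1 and released by electrophiles and oxidants. In mammals Nfe2 is known mainly for platelet formation and for globin gene control. Diquat is a bipyridyl herbicide that takes up an electron inside the cell and hands it to oxygen, so that superoxide is formed in repeated cycles.

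The allele is shown by its designed sites, as the submitters' protocol gives them, because no result on nfe2 mRNA can check it. A pair of TAL effector nucleases was aimed at exon 3, and the founder lost 8 bases between and at the edge of their targets. All sequences are written 5′ to 3′, and capitals mark the bases lost or, in the right target, the 5 bases that are also the last 5 of the lost stretch.
left TALEN target: tcacccacctcttatgag
right TALEN target: CATGActacacgtggtca
deleted bases: GCACATGA
The protocol states that the frame shift changes the protein from residue 111, reaches a stop 13 residues later and lies 161 residues ahead of the CNC DNA-binding domain. It also starts the deletion at nucleotide 468 of the coding sequence, which would be a later codon than residue 111, and which position holds was not tested.

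Whole reads recovered from the deposited values summed to between 0.533 and 0.862 M over the 18 libraries of the 96 hpf stage (median 0.740 M, or 2.96% of a stated 25 M per sample). The libraries were directional, but no source used here gives the strand that was counted. In all 18 libraries mt-nd6, the gene on the other strand of the mitochondrial genome, stood 7.45 to 13.2 times above the median of the other 12 mitochondrial mRNAs. Whether a value counts reads of the gene or of its opposite strand was not tested, and a gene that overlaps another can carry its neighbour's reads. The library of knockout diquat replicate 2 stood apart. It was the shallowest, with 0.533 M reads and a size factor of 0.571. Its mean correlation with its own group was 0.868 against 0.897 and 0.886 for the others. On the third principal component (8.92% of the variance) it lay at -69.4, while the other 5 diquat libraries lay between 3.63 and 13.3. Knockout tBOOH replicate 1 came next at -26.9, and it was also the next shallowest (0.627 M reads, size factor 0.661). Wildtype diquat libraries correlated at 0.938 to 0.939. Of 632 matched markers in 11 tissue lists 408 had a mean of 10 or more, so the pools read as whole larvae. Values are normalised read counts, differences are log2(value + 1) in knockout minus wildtype with their SE, and adjusted p-values come from limma over all genes tested. Each test sets a difference against the spread between pools within groups, estimated over all 18 libraries of the stage. Water and tBOOH pools therefore enter that spread. Knockout diquat pools were the least alike of the stage, at 0.868 to 0.897 against 0.904 or more in each other group. A shared spread can be too small for such a group, and the SE and adjusted p given here can be too small with it.

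Of 11436 genes tested under diquat 1611, or 14.1%, were called, with knockout above wildtype in 718 (6.28%) and below it in 893 (7.81%). The median difference over all tested genes was -0.01. Genes whose groups of 3 did not overlap numbered 3290, or 28.8%. Without knockout diquat replicate 2 the total was 1568, of which 1191 were among the 1611. It was 979 without wildtype diquat replicate 2, and 767 when only the 6 diquat libraries entered the fit, with 759 of these among the 1611.

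The 15 genes named as furthest above wildtype did not belong to an antioxidant list, and some of their differences were very large. Genes named as furthest above or below wildtype were chosen among calls whose groups did not overlap, so their separation was set by that choice. The cilia- and flagella-associated protein gene CFAP70 had 0, 0 and 1.04 normalised reads in the wildtype diquat libraries and 331, 331 and 343 in the knockout ones. The whole wildtype group held 1 read, so the ratio of reads was 992 with a 95% counting interval of 178 to 39213 (log2 difference 8.05 ± 0.31, adjusted p = 2.02e-17). The RNA helicase gene dhx40 stood at 3.14, 2.90 and 6.23 in wildtype and 94.3, 179 and 81.6 in knockout (4.52 ± 0.40, adjusted p = 9.40e-09). One of a pair of IDs named dnajb9b, an endoplasmic reticulum cochaperone (ENSDARG00000016886), stood at 11.5, 3.87 and 6.23 against 81.1, 418 and 290. Its difference was 4.83 ± 0.46 (adjusted p = 2.43e-08). The other dnajb9b ID (ENSDARG00000097601) went the other way, at 76.3, 99.7 and 51.9 against 34.5, 43.8 and 38.8 (-0.90 ± 0.25, adjusted p = 0.0129), and this call ended without wildtype diquat replicate 2 (adjusted p = 0.118) and with only the compared groups (adjusted p = 0.0605).

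Cyclin F, an F-box protein that directs cell cycle proteins to degradation, is encoded by ccnf, which stood at 27.19, 4.84 and 72.7 in wildtype and 323, 513 and 524 in knockout (4.27 ± 0.48, adjusted p = 4.91e-07). The wildtype libraries were spread widely here, from 4.84 to 72.7. The Elongator scaffold gene ikbkap had 6.27, 9.68 and 5.19 against 125, 154 and 67.6 (3.81 ± 0.31). At higher levels, the dipeptidyl peptidase gene dpp7 had 483, 496 and 803 against 2215, 2646 and 2763, which is 4.28-fold higher (2.13 ± 0.20, adjusted p = 1.69e-08). The apoptosis inhibitor gene aven had 659, 696 and 644 against 1693, 2932 and 3850 (2.00 ± 0.21). Smaller differences were seen for nox1, which encodes a superoxide-producing NADPH oxidase (13.9 ± 0.645 against 62.4 ± 35.5, SD, n = 3), for eif2b1, a subunit of the exchange factor eIF2B (27 ± 8.3 against 99.8 ± 38.7), for the proton pump subunit gene tcirg1a (25.5 ± 5.1 against 84.6 ± 6.90) and for the kinesin motor gene kif3b (29.1 ± 3.54 against 96.5 ± 31.6). Each was called, with differences of 1.95, 1.82, 1.70 and 1.66, and adjusted p from limma between 8.47e-06 and 0.000597.

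**Figure D1:**
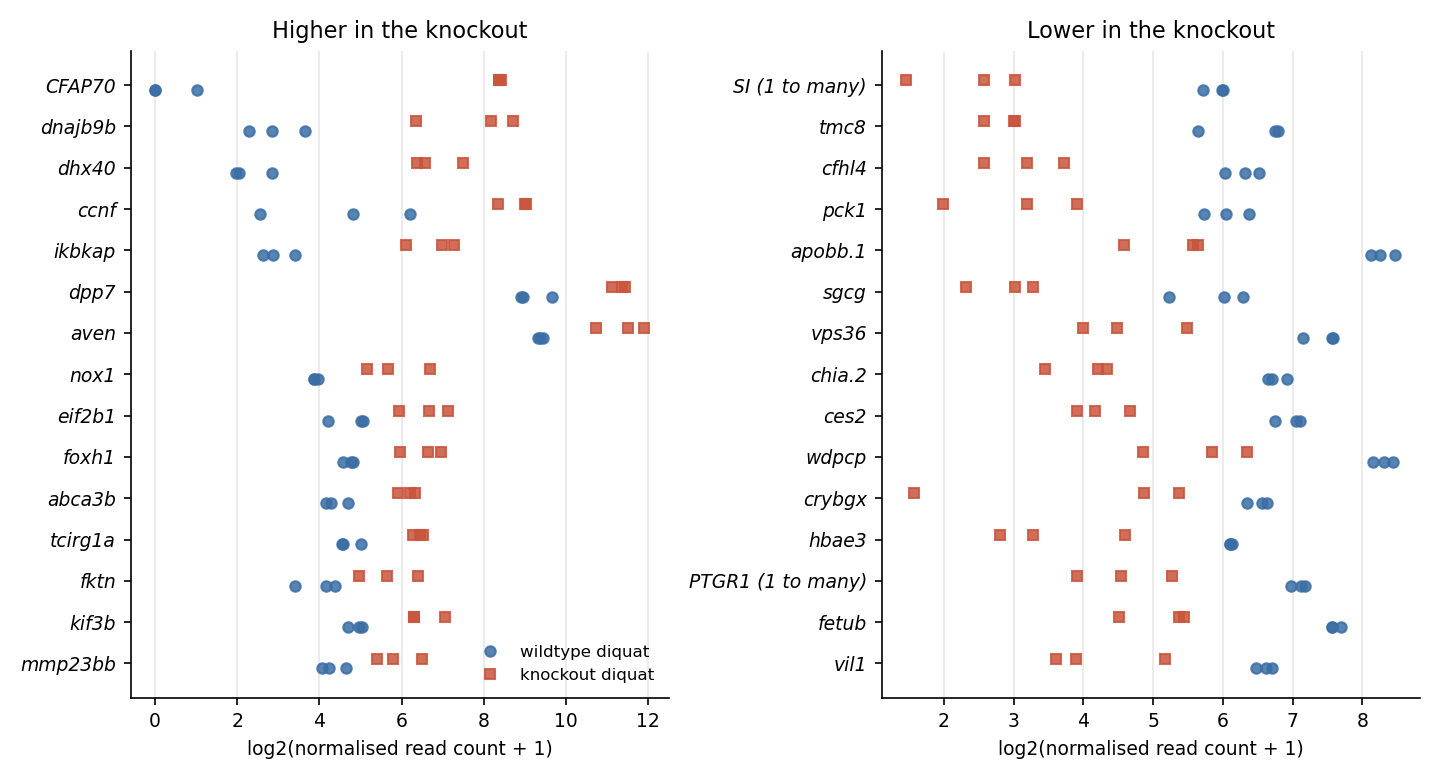
Normalised read counts of the 15 genes named as furthest above and the 15 named as furthest below wildtype under diquat, on a log2(value + 1) axis, with 1 point for each of the 3 wildtype (blue circles) and 3 knockout (red squares) libraries. Genes were chosen among calls whose groups did not overlap, so the separation in each gene drawn was set by the choice. CFAP70 shows the widest gap, and the dnajb9b drawn is ENSDARG00000016886.

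The 15 genes named as furthest below wildtype included apobb.1, ces2 and fetub of the liver list and chia.2 and vil1 of the intestine list. SI, the gene for the brush border enzyme sucrase-isomaltase (ENSDARG00000101629), had 62.7, 51.3 and 63.3 normalised reads in wildtype and 7.09, 1.75 and 4.97 in knockout, 12.8-fold lower (-3.55 ± 0.41, adjusted p = 8.98e-07). The gluconeogenic enzyme gene pck1 had 52.3, 64.9 and 82.0 against 8.11, 14 and 2.98 (-3.02 ± 0.34). The apolipoprotein B gene apobb.1, which builds lipoprotein particles, had 278, 305 and 354 against 46.6, 49.0 and 22.9 (-3.02 ± 0.24, adjusted p = 2.52e-09). As for the rises, only genes whose groups did not overlap could be named here. In pools of whole animals, fewer cells of a type and less RNA per cell cannot be told apart, and this holds for every organ list below.

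The complement factor H-like gene cfhl4 (-3.12), the chitinase gene chia.2 (-2.76), the carboxylesterase gene ces2 (-2.73), the fetuin gene fetub (-2.50) and the villin gene vil1 of the microvillus core (-2.38) were lower as well. Genes with other known roles stood beside them. The muscle sarcoglycan gene sgcg had 63.8, 77.4 and 36.3 against 7.09, 8.75 and 3.98 (-2.97 ± 0.41). The ESCRT-II subunit gene vps36, which sorts membrane proteins to the lysosome, had 141, 188 and 190 against 21.3, 43.8 and 14.9 (-2.78 ± 0.27). The planar polarity and ciliogenesis gene wdpcp (-2.62 ± 0.25) and the membrane protein gene tmc8 (-3.53 ± 0.47, 88.5 ± 34.1 against 6.36 ± 1.2) completed this group. All of the genes in these paragraphs other than the second dnajb9b ID remained called when any 1 of the 6 libraries was left out and in each of the other 8 alternatives.

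The mutated gene itself was too low to test at this stage. It had 0, 0 and 2.08 normalised reads in wildtype diquat and 3.04, 1.75 and 0.995 in knockout diquat, a range in which 1 read decides the value. At 2 hpf, where nfe2 could be tested, it was higher in the knockout under diquat (1.69 ± 0.47, adjusted p = 0.00431). In that contrast 23.8% of all tested genes were called higher. An 8-base deletion need not remove the transcript, so these values check neither genotype nor protein. Of 16 matched CNC factors and partners 9 were tested, with 0 higher and 1 lower (median -0.75). Among all genes under diquat 6.28% were higher and 7.81% lower, so 1 call of 9 does not by itself set this list apart. The call was bach1b, a repressor that competes for the same elements, at 31.4, 35.8 and 23.9 against 13.2, 8.75 and 13.9 (-1.28 ± 0.33, adjusted p = 0.00854), and it ended without wildtype diquat replicate 2 (adjusted p = 0.0553). Without knockout diquat replicate 1 the list had 3 lower members and without knockout diquat replicate 3 it had 2. The Nrf2 gene nfe2l2a had 51.2, 68.7 and 68.5 against 46.6, 64.8 and 52.7. These groups overlapped (-0.20 ± 0.20, adjusted p = 0.578), while in water it was lower in the knockout (-0.91, adjusted p = 0.0015). The difference between both differences was 0.71 and did not pass the test (adjusted p = 0.520). For nfe2l3, the third Nrf gene, the values were 37.6, 41.6 and 39.5 against 24.3, 17.5 and 28.8, and the difference of -0.75 ± 0.26 missed the threshold (adjusted p = 0.0516).

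Genes known as Nrf2 targets stood lower in the knockout under diquat. Of 29 matched members 25 were tested, of which 16 were lower and 0 higher, with a median of -1.09, against 7.81% lower and a median of -0.01 over all genes. The summed level of the list was 1735, 1902 and 1840 in wildtype and 959, 1024 and 1071 in knockout, with no overlap. The number of calls was 12 to 16 when 1 library was left out. The lower level was not particular to diquat. In water 20 of the 25 were lower and 1 higher (median -1.40), where 13.1% of all genes were lower. In tBOOH 15 were lower and 0 higher (median -0.88), where 10.7% of all genes were lower. The summed level was 1.79-fold lower in the knockout under diquat, 1.93-fold in water and 1.49-fold in tBOOH.

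The glutathione transferase gene gstp1, which joins glutathione to electrophiles, had 218, 228 and 218 normalised reads in wildtype diquat and 79.1, 75.3 and 83.6 in knockout diquat, 2.79-fold lower (-1.47 ± 0.17, adjusted p = 8.98e-07). Its neighbour in name, gstp2, had 12.5, 17.4 and 28 against 0, 0 and 0.995. The knockout group held 1 gstp2 read, and the ratio of reads was 0.0202 with a 95% counting interval of 0.000503 to 0.117. The autophagy receptor gene sqstm1, which also carries Keap1 to degradation in mammals, had 76.3, 87.1 and 69.6 against 25.3, 19.3 and 27.9 (-1.66 ± 0.22, adjusted p = 7.24e-06). The list member zgc:158387, which has no gene name in the table, had 201, 183 and 197 against 63.9, 49.0 and 61.7 (-1.73 ± 0.24). These were the 4 list members with the smallest p, a choice that favours separation, and in none did a knockout library reach the lowest wildtype one.

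The remaining list members are given here by the steps they serve, named after their values were seen. Enzymes that recycle glutathione and thioredoxin were lower: glutathione reductase gsr (28.9 ± 2.63 against 9.10 ± 3.84, -1.64 ± 0.33, adjusted p = 0.00103) and thioredoxin reductase txnrd1 (79.3 ± 12 against 37.9 ± 7.17, -1.05 ± 0.21, adjusted p = 0.000964). Thioredoxin txn had 113, 140 and 95.5 against 49.7, 29.8 and 87.5 (-1.16 ± 0.24, adjusted p = 0.00133). The gene pgd, for an enzyme that supplies NADPH, was lower as well, at 49.1 ± 6.08 against 23.1 ± 6.35 (-1.09 ± 0.26), as was the carbonyl reductase gene cbr1l (-1.77 ± 0.32). These calls, with those of gstp1, gstp2, sqstm1, zgc:158387 and zgc:109934, are among the 11 of 16 that held whichever library was left out. The other 5 calls each ended without at least 1. The quinone reductase gene nqo1 (-1.16) lost its call without wildtype diquat replicate 2 or 3 (adjusted p up to 0.0783), and the glutamate-cysteine ligase gene gclc (-0.99) without wildtype replicate 1 or 3 or knockout replicate 3 (up to 0.0728). The exporter gene abcc2 (-1.07) held only without knockout replicate 2 (otherwise up to 0.154), and ugdh (-1.25), which makes UDP-glucuronate, only without knockout replicate 1 (otherwise up to 0.163). The pentose phosphate gene taldo1 (-1.23) lost its call without wildtype replicate 2 or 3 or knockout replicate 3 (up to 0.18). With only the compared groups abcc2, taldo1 and ugdh were not called. Not called were 9 members. Among them the ferritin gene fth1a had 267, 295 and 265 against 198, 285 and 197 (-0.30 ± 0.20, adjusted p = 0.336). The heme oxygenase gene hmox1a had 17.8, 11.6 and 14.5 against 25.3, 24.5 and 28.8, and its groups did not overlap although the difference of 0.82 ± 0.44 missed the threshold (adjusted p = 0.232).

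PTGR1, a reductase that clears lipid peroxidation aldehydes, was outside the list and among the largest falls. The table names this ID as 1 of many zebrafish counterparts of the human gene, so reads of close copies may be mixed. A separate gene named ptgr1 is in the list and was not called, at 11.5, 13.6 and 10.4 against 14.2, 29.8 and 10.9 (0.48 ± 0.37, adjusted p = 0.44). PTGR1 had 138, 125 and 143 normalised reads in wildtype diquat and 22.3, 14 and 37.8 in knockout diquat (-2.51 ± 0.38, adjusted p = 3.79e-05). In water the means were 19.9 ± 7.76 and 2.14 ± 1.86 and in tBOOH 311 and 130. The difference between genotypes in the response to diquat did not pass the test for PTGR1 or gstp1 (0.41 and -0.07, adjusted p = 0.884 and 0.964).

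**Figure D2:**
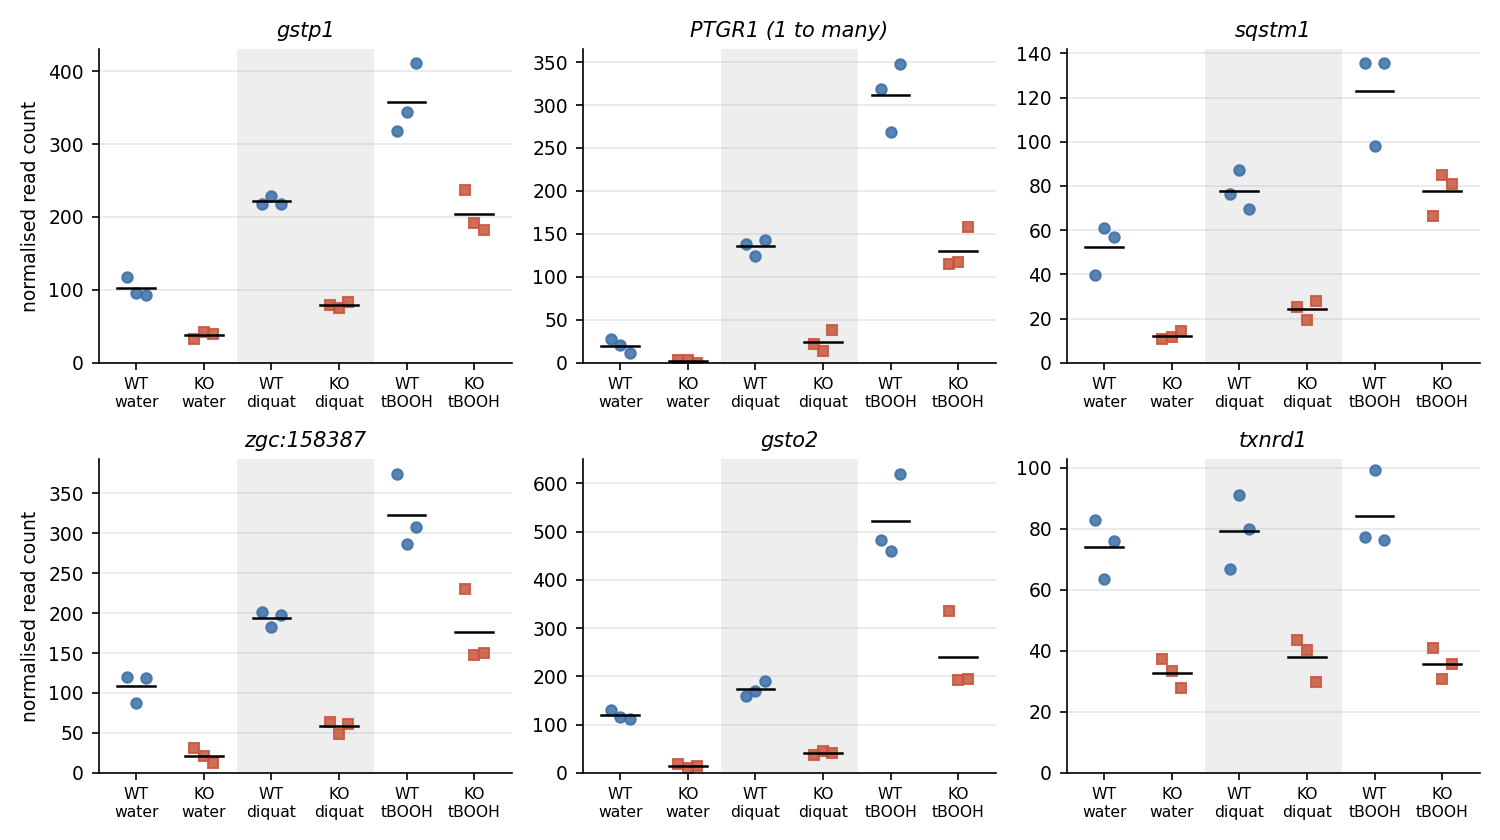
Normalised read counts of 6 antioxidant genes in each library of the 6 groups at 96 hpf (WT, wildtype, blue circles; KO, knockout, red squares; black line, mean of 3), with the diquat groups shaded. Under diquat the 3 knockout libraries lie below the 3 wildtype libraries in each of the 6 genes, as for gstp1 with 75.3 to 83.6 against 218 to 228. The 6 genes were chosen among calls of this comparison, PTGR1 among those whose groups did not overlap, so the choice favoured separation.

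Of 27 tested glutathione enzyme genes 10 were lower (37%, beside 7.81% of all genes) and 0 higher (median -0.59). The omega-class transferase gene gsto2 had 159, 169 and 190 against 37.5, 45.5 and 40.8 (-2.04 ± 0.22, adjusted p = 1.53e-07). The summed level of this list overlapped between the groups, at 1542, 1524 and 1518 against 802, 1642 and 929, since replicate 2 of the knockout stood high. Of 20 peroxide and superoxide enzyme genes 4 were lower (20%) and 0 higher (median -0.38), and 2 were lower with only the compared groups.

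Other stress programmes differed little in number of calls. Heat shock proteins counted 0 higher and 2 lower of 29 (median -0.40), p53 targets 1 higher of 18 (median -0.21), immediate early genes 1 lower of 24 (median -0.23), and unfolded protein and integrated stress genes 1 higher and 3 lower of 33 (median -0.09). In that last list edem1, which directs misfolded glycoproteins to degradation, had 33.5, 41.6 and 28 against 14.2, 15.8 and 15.9 (-1.10 ± 0.26, adjusted p = 0.00426). Proteasome subunits counted 3 lower of 37 (median -0.17), with psmc1b at 49.0 ± 4.73 against 19.9 ± 9.45 (-1.36 ± 0.27, adjusted p = 0.00074). Calls this few moved with single libraries. The lower proteasome calls numbered 8 without knockout diquat replicate 1, the lower heat shock calls ranged from 0 (without wildtype replicate 2) to 4 (without knockout replicate 1), and 1 unfolded protein gene was lower without wildtype replicate 2. The p53 call ended without wildtype or knockout replicate 3, and the immediate early call without wildtype replicate 1 or 2 or knockout replicate 1 or 3. The shares of these 5 lists lay near or below the 6.28% and 7.81% of all genes.

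Liver genes were the most affected of the organ lists by share, with 68.8% called lower beside 7.81% of all genes. Of 48 tested members 33 were lower and 0 higher (median -1.45), and 28 to 38 were lower when 1 library was left out, with 38 without knockout diquat replicate 2. The summed level was 4955, 4757 and 4521 in wildtype diquat and 1909, 2741 and 1647 in knockout diquat, 2.26-fold lower. No knockout library reached a wildtype one. The transferrin gene tfa, for the iron carrier of plasma, had 326, 263 and 242 against 51.7, 96.3 and 30.8 (-2.34 ± 0.30, adjusted p = 3.29e-06). Fetuin fetub had 207, 189 and 189 against 42.6, 40.3 and 21.9.

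Plasma proteins and liver metabolism followed the same direction, beside 7.81% lower and 6.28% higher over all genes. Of 26 coagulation and complement genes 16 were lower and 0 higher (median -1.88). Fibrinogen gamma, fgg, had 66.9, 78.4 and 48.8 against 16.2, 12.3 and 11.9 (-2.17 ± 0.26), prothrombin, f2, was at 49.9 ± 10.5 against 11.6 ± 3.61 (-2.03 ± 0.27), and plasminogen, plg, at 57.3 ± 4.71 against 11.4 ± 3.1 (-2.27 ± 0.31). Of 30 genes of gluconeogenesis and amino acid breakdown 18 were lower and 0 higher (median -1.22). Besides pck1 these included 3 successive enzymes of tyrosine breakdown, tat (-1.93 ± 0.29), hpda (-2.36 ± 0.34) and hgd (-1.96 ± 0.25), with adjusted p of 3.96e-05, 1.97e-05 and 4.00e-06. Of 45 genes of lipid transport and breakdown 17 were lower and 2 higher (median -0.47). The apolipoprotein genes apoc1 (123 ± 8.51 against 30.9 ± 7.33) and apoeb (177 ± 24.0 against 68.1 ± 4.82) were among the lower ones. Cholesterol synthesis stood apart from these, with 0 calls of 14 by limma, edgeR or DESeq2 (median 0.12, 2 at an unadjusted p under 0.05), while 1 was higher without wildtype diquat replicate 3.

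Digestive tract genes were lower too, with 41.7% of intestine and 52.9% of exocrine pancreas genes called lower beside 7.81% of all genes. Of 36 intestine genes 15 were lower and 1 higher (median -1.07), with summed levels of 1370, 1398 and 1565 in wildtype and 779, 959 and 908 in knockout. The brush border aminopeptidase gene anpepb had 96.2, 143 and 152 against 30.4, 21.0 and 40.8 (-2.07 ± 0.26, adjusted p = 2.60e-06). Of 17 exocrine pancreas genes 9 were lower and 0 higher (median -1.08), with sums of 534, 487 and 703 against 307, 452 and 249. The groups did not overlap in either sum. Among the pancreatic enzymes, ela2 had 27.19, 17.4 and 42.6 against 3.04, 3.5 and 3.98 (-2.66 ± 0.30), the carboxypeptidase gene cpa5 29.5 ± 8.32 against 4.00 ± 2.64 (-2.70 ± 0.44), and the amylase gene amy2a 21.2 ± 5.94 against 4.08 ± 1.79 (-2.16 ± 0.37).

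**Figure D3:**
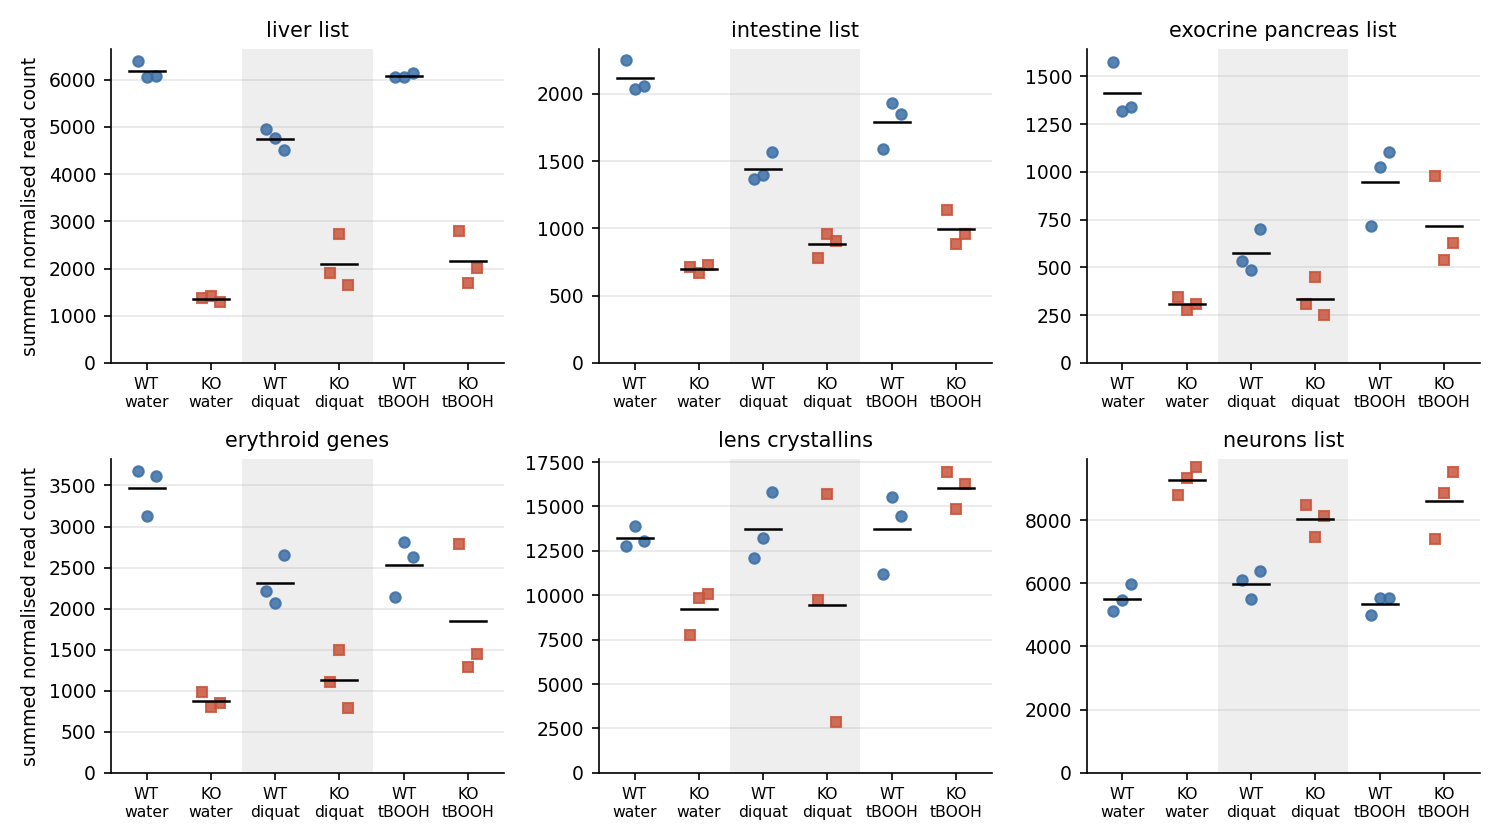
Summed normalised read counts of 6 gene lists in each library of the 6 groups at 96 hpf (WT, wildtype, blue circles; KO, knockout, red squares; black line, mean of 3), with the diquat groups shaded and each axis starting at 0. Knockout diquat libraries lie below wildtype diquat ones for liver (1647 to 2741 against 4521 to 4955), intestine, exocrine pancreas and erythroid genes and above them for neurons, while the lens sums overlap.

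Erythroid genes, a lineage in which mammalian NF-E2 is known to act, counted 5 lower and 1 higher of 22 (median -0.52). Over all genes 7.81% were lower and 6.28% higher. Of the 22 members 14 had a difference below 0, and at least 1 was called higher in each fit. The erythroid genes with values here are lower ones only. The heme synthesis enzyme of red cells, alas2, had 773, 743 and 1195 against 239, 411 and 227 (-1.64 ± 0.28, adjusted p = 0.00017). The ammonium channel gene rhag of the red cell membrane had 118, 111 and 104 against 45.6, 43.8 and 34.8 (-1.41 ± 0.24), and the embryonic globin gene hbae3 had 69.0, 67.8 and 67.5 against 23.3, 8.75 and 5.97 (-2.55 ± 0.52, adjusted p = 0.00114). Groups were separate in all of these, which the choice by smallest p favours. Of 16 iron and heme genes 6 were lower and 0 higher (median -0.85). One was alas1, the housekeeping counterpart of alas2 (81.6 ± 10.01 against 41.9 ± 8.73, -0.96 ± 0.21), and another was the transferrin receptor gene tfr1b (62.3 ± 7.01 against 26.9 ± 10.24, -1.24 ± 0.30). Only 4 of 21 matched thrombocyte genes could be tested, and 2 were called lower (median -0.48). No thrombocyte call was made without wildtype diquat replicate 1, wildtype replicate 2 or knockout replicate 3, or with only the compared groups, and 1 was made without knockout replicate 1 or 2. The platelet lineage could hardly be read at this depth.

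White cell calls were lower ones and interferon calls mostly higher ones, on 10 tested genes each. Over all genes 7.81% were lower and 6.28% higher. Of 10 tested neutrophil and macrophage genes 3 were lower and 0 higher (median -0.66), among them the lysozyme gene lyz at 31.4, 28.1 and 31.2 against 12.2, 7.0 and 5.97 (-1.79 ± 0.39, adjusted p = 0.00231). Of 10 tested interferon and antigen presentation genes 3 were higher and 1 lower (median 0.55). Only 1 was higher without wildtype diquat replicate 3, without knockout diquat replicate 2 or with only the compared groups. The immunoproteasome gene PSMB10 (ENSDARG00000043781) had 5.23, 4.84 and 6.23 against 33.4, 50.8 and 28.8, 6.94-fold higher (2.55 ± 0.31, adjusted p = 1.91e-06). The interferon signal transducer gene stat1a had 278, 210 and 302 against 386, 735 and 590 (1.08 ± 0.20, adjusted p = 0.000393), and it was the 1 higher of 11 inflammation genes, against 2 lower. The lower inflammation calls numbered 0 without wildtype diquat replicate 2 or knockout diquat replicate 3 and 1 without knockout diquat replicate 1.

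Skin and skeleton leaned lower, with 28% of epidermis and ionocyte genes and 34.8% of collagen, cartilage and bone genes called lower. Over all genes 7.81% were lower and 6.28% higher. Of 50 epidermis and ionocyte genes 14 were lower and 1 higher (median -0.45), and 9, 7 and 9 were lower without wildtype diquat replicate 1, wildtype diquat replicate 2 and knockout diquat replicate 2 in turn, and 6 with only the compared groups. The adhesion gene epcam had 102, 136 and 86.2 against 40.5, 35.0 and 47.7 (-1.36 ± 0.22, adjusted p = 6.85e-05). The sodium pump genes atp1a1a.2, for an alpha subunit (-1.71 ± 0.33), and atp1b1b, for a beta subunit (-1.13 ± 0.22), were lower. The keratin gene krt17 was the higher one, at 40.8, 47.4 and 59.19 against 116, 117 and 181 (1.45 ± 0.22, adjusted p = 3.58e-05). Of 46 collagen, cartilage and bone genes 16 were lower and 1 higher (median -0.60). The otolith matrix gene stm, named for the starmaker protein on which the ear stone grows, had 620, 649 and 566 against 177, 200 and 267, 2.85-fold lower (-1.53 ± 0.18, adjusted p = 8.56e-07). The matrix genes fn1b (109 ± 26.0 against 34.7 ± 14), col12a1a (70.31 ± 17.2 against 22.0 ± 3.42) and col6a1 (171 ± 6.27 against 56.0 ± 33.6) were lower with it. Of 17 vascular endothelium genes 2 were lower (11.8%, median -0.47), beside 7.81% of all genes. Of 13 heart genes 3 were lower (23.1%) and 1 higher (7.69%), with a median of -0.50. The atrial light chain gene myl4 stood at 25.2 ± 6.63 against 5.43 ± 0.476 (-2.0 ± 0.36, adjusted p = 0.000338). The lower heart calls numbered 1 without wildtype replicate 1, the higher one ended without wildtype replicate 1 or 2 or knockout replicate 3, and 1 endothelium gene was lower without wildtype replicate 3.

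Lens crystallins, the proteins that make the lens transparent, counted 16 lower (35.6%, beside 7.81% of all genes) and 0 higher of 45 (median -0.77). Their summed level was 12110, 13246 and 15789 in wildtype and 9727, 15716 and 2873 in knockout, so the groups overlapped, and knockout diquat replicate 3 stood far below the other two. Without that library 12 were lower and the median was -0.38, without knockout diquat replicate 2 23, and with only the compared groups 8. The crystallin gene cryba2b had 234, 231 and 271 against 120, 80.5 and 41.8 (-1.71 ± 0.23, adjusted p = 9.38e-06), and the beaded filament gene bfsp2 had 59.6, 57.1 and 58.2 against 27.4, 35.0 and 7.96 (-1.50 ± 0.31). Photoreceptor genes counted 6 higher and 3 lower of 59 (median 0.20). The retinal transporter gene abca4a had 42.9, 52.3 and 48.8 against 82.1, 138 and 113 (1.17 ± 0.21), and the cone transducin gene gngt2b had 206 ± 30.3 against 382 ± 70.31 (0.88 ± 0.18). The arrestin gene saga, which ends the rod response, was lower instead, at 50.2, 39.7 and 48.8 against 20.3, 28 and 23.9 (-0.92 ± 0.24, adjusted p = 0.00955). The summed level of the photoreceptor list was 5299, 5676 and 6525 in wildtype and 6976, 7443 and 7626 in knockout, with no overlap. The count of higher photoreceptor genes was 3 without wildtype diquat replicate 1 or 2, and that of lower ones 1 without wildtype diquat replicate 3.

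Neuron and cytosolic ribosomal protein genes were called higher and none was called lower, in water and tBOOH as well as under diquat. In water 42 of 80 neuron genes and 32 of 85 ribosomal genes were higher, and in tBOOH 38 and 53. Over all genes 6.28% were higher under diquat, 9.92% in water and 10% in tBOOH. Under diquat 14 of the 80 neuron genes were higher and 0 lower (median 0.33), with 8 higher without wildtype diquat replicate 2 and 8 with only the compared groups. The summed level was 6110, 5488 and 6377 in wildtype and 8477, 7471 and 8131 in knockout, 1.34-fold higher, with no overlap. Neuronal tubulin, tubb5, had 260, 187 and 247 against 403, 445 and 501 (0.96 ± 0.17, adjusted p = 0.000255). The growth cone genes stmn2b (34.1 ± 8.24 against 77.4 ± 3.49, 1.19 ± 0.22) and gap43 (89.3 ± 10.7 against 187 ± 61.5, 1.01 ± 0.22) were higher as well. Glia and myelin genes were split, with 3 higher and 3 lower of 23 (median 0.12). Each share was 13%, beside 6.28% higher and 7.81% lower over all genes. The astroglial filament gene gfap was higher (78.0 ± 8.64 against 141 ± 23.6, 0.83 ± 0.20) and the folate enzyme gene aldh1l1 (ENSDARG00000077004) lower (58.1 ± 6.16 against 19.5 ± 6.25, -1.57 ± 0.26). Without wildtype diquat replicate 1 or knockout diquat replicate 1, 1 glia and myelin gene was higher.

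Of 65 skeletal muscle genes 9 were higher (13.8%, beside 6.28% of all genes) and 5 lower (7.69%, beside 7.81%), with a median of 0.17. The giant sarcomere protein gene ttna had 378, 394 and 345 against 893, 613 and 1329 (1.27 ± 0.22, adjusted p = 0.000163) and the calcium buffer gene pvalb1 had 565, 548 and 566 against 859, 1540 and 1085 (1.01 ± 0.22). The muscle enolase gene eno3 was lower, at 191, 200 and 165 against 74.0, 61.3 and 62.7 (-1.48 ± 0.20, adjusted p = 8.59e-06). The higher count was 5 without wildtype diquat replicate 3, and the lower count was 2, 3 and 3 without wildtype diquat replicate 1, wildtype diquat replicate 2 and knockout diquat replicate 3. Of 85 cytosolic ribosomal protein genes 24 were higher and 0 lower (median 0.32). Summed, they gave 22243, 22054 and 22248 in wildtype and 25873, 27997 and 31892 in knockout. The gene rps19 had 119, 150 and 131 against 213, 236 and 272 (0.84 ± 0.16, adjusted p = 0.000713). The ribosomal count was 14, 9 and 13 without wildtype diquat replicate 1, 2 and 3 in turn, and 3 with only the compared groups.

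The remaining lists had few calls in number, and their shares lay on both sides of the 6.28% higher and 7.81% lower of all genes. The share called lower was 12% for hypoxia and glycolysis and 25% for the 8 aryl hydrocarbon receptor targets. The share called higher was 8.51% for cell cycle genes and 8.11% for circadian and light genes. Hypoxia and glycolysis counted 1 higher and 6 lower of 50 (median -0.14), and 3 were lower without wildtype diquat replicate 2. Without knockout diquat replicate 1 there were 4 higher, and without each other library none. Cell cycle genes counted 4 higher and 1 lower of 47 (median 0.10), and 0 were higher without wildtype diquat replicate 2 or knockout diquat replicate 2, 1 without wildtype replicate 1 and 2 without wildtype replicate 3. Circadian and light genes counted 3 higher and 1 lower of 37 (median -0.03), with 1 higher without each library other than knockout replicate 1. Of 8 aryl hydrocarbon receptor targets 2 were lower (median -0.24), the glucuronosyltransferase gene ugt1a1 at 86.3 ± 5.53 against 23.9 ± 6.65 (-1.84 ± 0.26, adjusted p = 1.80e-05) and nqo1, which left 1 without wildtype replicate 2 or 3. None of the 13 mitochondrial mRNAs was called by limma, edgeR or DESeq2 (median 0.07, 1 at an unadjusted p under 0.05), while 2 were higher without knockout diquat replicate 1 or 2 and 1 was lower without knockout diquat replicate 3. With only the compared groups the cell cycle, circadian, heat shock, p53, immediate early and endothelium lists had no call, lower hypoxia and glycolysis calls numbered 2, and muscle had 2 higher and 1 lower, photoreceptors 3 and 1, and interferon genes 1 and 0. In the same fit 1 unfolded protein gene, 1 proteasome gene and 0 inflammation genes were lower, 1 glia and myelin gene and 1 lipid gene were higher, and no glycolysis, heart or collagen, cartilage and bone gene was higher. Without knockout diquat replicate 2 the median was -0.21 for heat shock, -0.71 for lipid, -0.29 for endothelium and 0.27 for interferon genes, and without wildtype diquat replicate 1 it was -0.30 for heart.

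**Figure D4:**
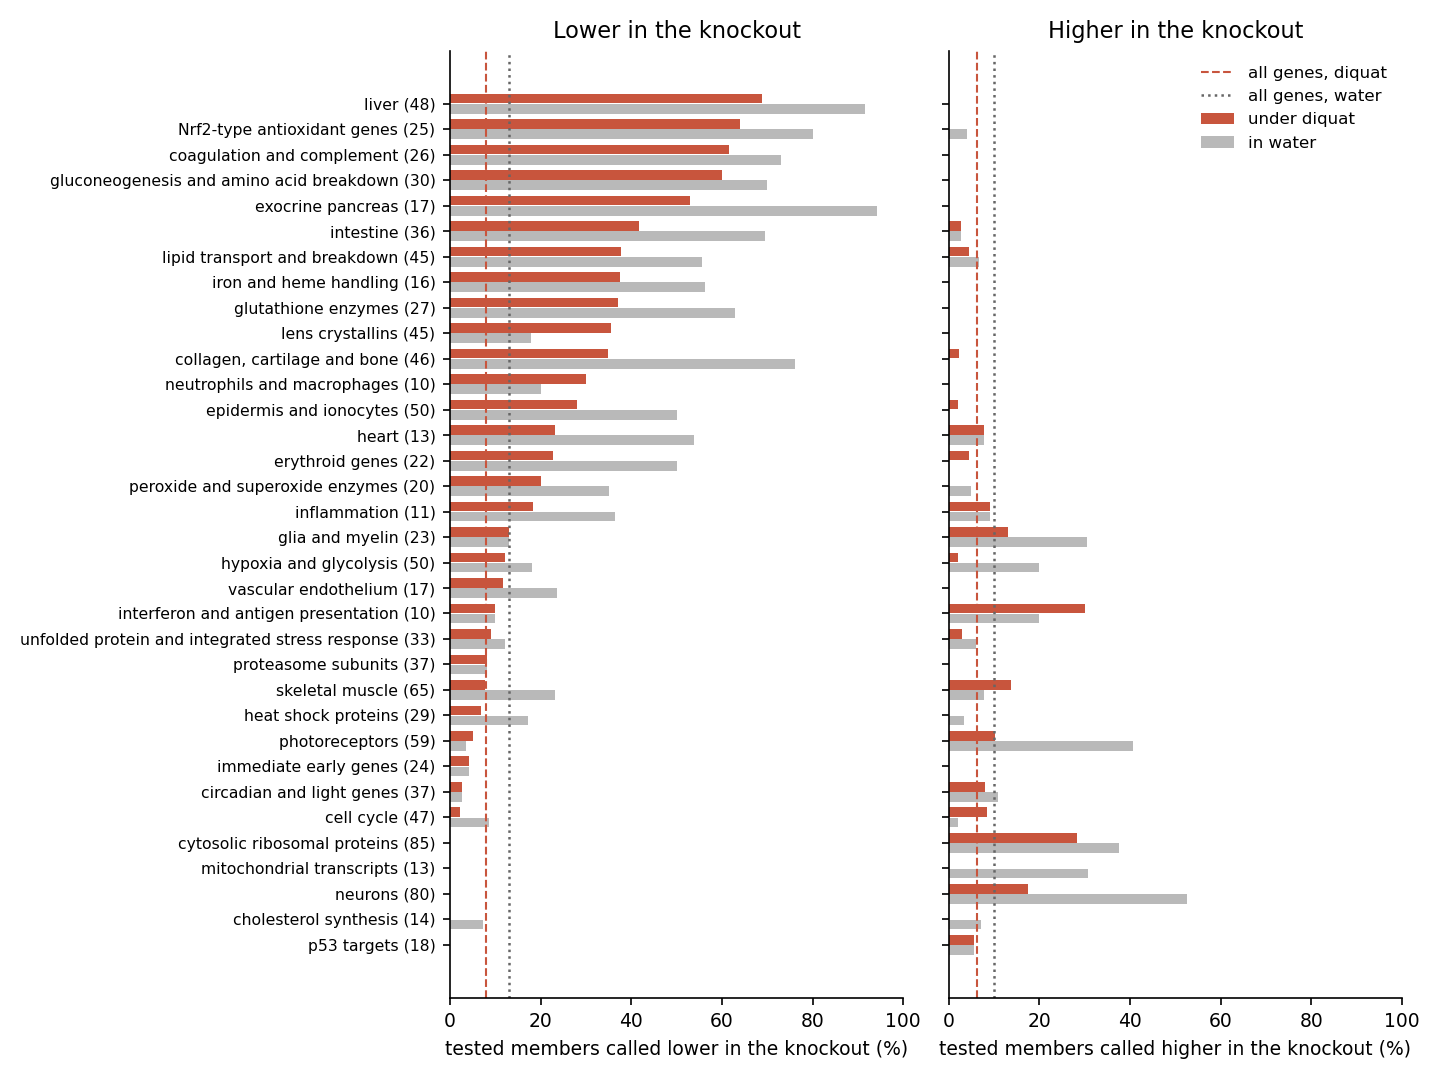
Share of the tested members of each list (number tested in brackets, lists with at least 10) that was called lower (left) or higher (right) in the knockout, under diquat (red bars) and in water (grey bars), with the share over all genes as dashed (diquat) and dotted (water) lines. Liver genes have the highest lower share under diquat, with 33 of 48, and cytosolic ribosomal proteins reach 24 of 85 on the higher side.

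The same genotype contrast in water and in tBOOH takes its means from other libraries of the stage. These contrasts share an estimate of spread for each gene with that under diquat, so their calls are not fully independent. In water 2635 genes (23%) were called, 9.92% higher and 13.1% lower, and in tBOOH 2370 (20.7%), 10% higher and 10.7% lower. Of the 1611 diquat calls 1110 were called in the same direction in water, which is 68.9% of the diquat calls and 42.1% of the water calls, and 0 were called in the opposite one. In tBOOH 991 were shared, 61.5% and 41.8%, with 4 opposite. Of the 1611 genes 1570 had the same sign in water whatever their p. Their median absolute difference under diquat was 1.15, and their median in water, taken in the direction seen under diquat, was 1.01.

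**Figure D5:**
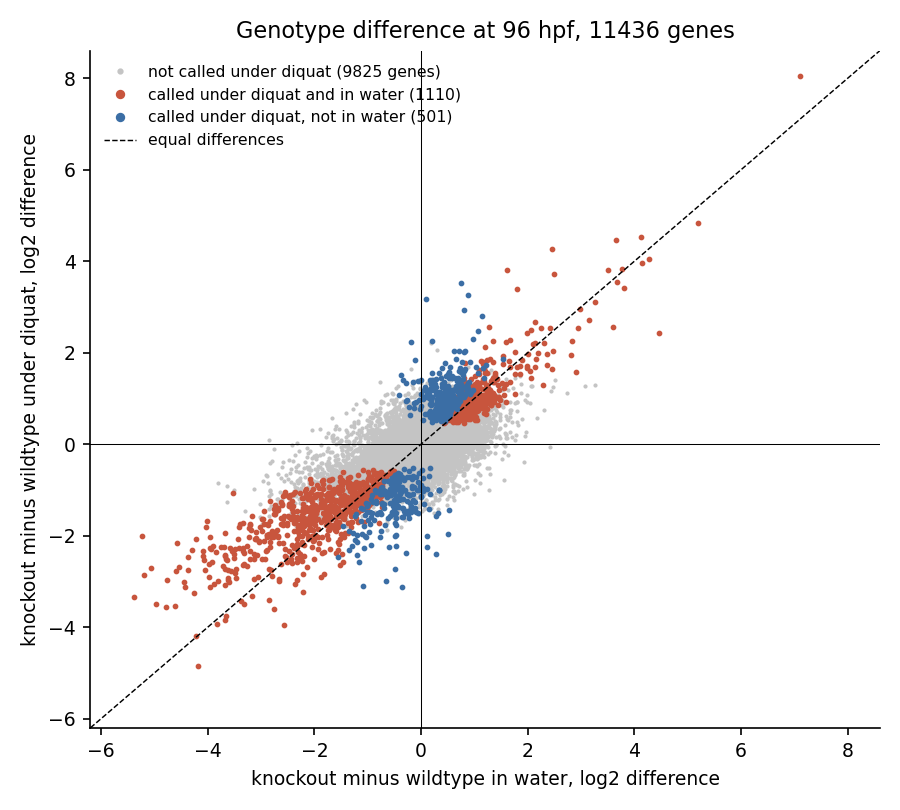
Genotype difference (knockout minus wildtype, log2) in water on the horizontal axis against that under diquat on the vertical axis for 11436 genes, with 1 point per gene. The 1110 genes called in both (red) lie to the upper right and lower left of the origin, 501 are called under diquat and not in water (blue), and the dashed line marks equal differences.

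Some organ lists lay closer together between the genotypes under diquat than in water by their summed levels, and others did not. The liver sum was 2.26-fold lower in the knockout under diquat and 4.55-fold lower in water, the exocrine pancreas sum 1.71-fold and 4.56-fold, the intestine sum 1.64-fold and 3.02-fold, and the erythroid sum 2.04-fold and 3.95-fold. Knockout diquat replicate 2, the outlying and shallowest library, had the highest knockout diquat sum in each of these lists. For liver it had 2741, beside 1909 and 1647 in knockout diquat replicates 1 and 3. The diquat folds therefore lean on that library, and folds without it were not calculated. The skeletal muscle sum was 1.28-fold higher in the knockout under diquat and 1.18-fold higher in water, and the lens sum 1.45-fold and 1.43-fold lower. A sum is weighted to its most abundant members. By gene, 5 of 65 muscle genes were higher in water (7.69%, beside 9.92% of all genes) and 15 lower (23.1%, beside 13.1%). Their median was -0.04. For liver, wildtype was 1.3-fold lower under diquat than in water and knockout 1.55-fold higher, with no overlap in either genotype. For the pancreas the wildtype sum was 2.45-fold lower under diquat than in water, while the knockout sums overlapped, at 307, 452 and 249 under diquat and 347, 275 and 306 in water. The medians of the response difference (the genotype difference under diquat minus that in water) were 0.79 for liver, 1.2 for exocrine pancreas, 0.83 for intestine and -0.40 for lens crystallins, but limma called 0 members of these lists, while 20 of 48, 11 of 17, 12 of 36 and 5 of 45 had an unadjusted p under 0.05. The response difference shares its diquat libraries with the main comparison.

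Gene by gene, that test called 1 of 11436 genes (0.00874%), while 990 had an unadjusted p under 0.05. The called gene was ihha (ENSDARG00000097968), a hedgehog ligand of growing cartilage and gut, which was below the level asked of named genes and was chosen after its values were seen. By other tools the number was 5 with edgeR and 23 with DESeq2. It was 77 without knockout diquat replicate 3, 9 without knockout diquat replicate 1, and between 0 and 4 without each other library. For the 501 genes called under diquat and not in water, a call in one condition alone is therefore no sign that the conditions differed. In pairs of values, cpa5 had 107 ± 19.5 and 2.92 ± 3.18 in wildtype and knockout water against 29.5 ± 8.32 and 4.00 ± 2.64 under diquat, with a response difference of 2.37 (adjusted p = 0.211). For vps36 the water means were 374 ± 46.8 and 14.9 ± 5.51 and the diquat means 173 ± 27.6 and 26.7 ± 15.1, with a response difference of 1.83 (adjusted p = 0.0991).

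At the other stages the contrast under diquat called 110 of 9725 genes (1.13%) at 48 hpf and 3501 of 7783 (45%) at 2 hpf. Of the 1611 calls 1276 were tested at 48 hpf, and 66 were called there in the same direction, with 1 opposite. These are 5.17% of the calls tested there, 4.10% of all 1611 and 60% of the 48 hpf calls. At 2 hpf 899 were tested and 525 shared, with 62 opposite, which is 58.4% of those tested, 32.6% of all 1611 and 15% of the 2 hpf calls. A set of 30 genes was called in the same direction in all 5 contrasts (diquat at 3 stages, water and tBOOH at 96 hpf), 20 of them higher and 10 lower. CFAP70 was one, with differences of 6.93 at 48 hpf and 7.87 at 2 hpf, as were dnajb9b (ENSDARG00000016886; 5.27 and 8.12), dhx40 (3.62 and 4.54), ccnf (2.74 and 1.88) and dpp7 (1.62 and 2.2). On the lower side cyp4v7, a cytochrome P450 gene chosen after its values were seen, had 16.7, 31.0 and 41.5 in wildtype diquat at 96 hpf and no read in any knockout diquat library. Set against 3 reads over the knockout group, wildtype was at least 25.4-fold higher. In the erythroid list the 48 hpf contrast called 10 of 24 tested members lower (median -1.22), where 0.658% of all genes were lower, and in the liver list 0 of 25 (median -0.72, 0 at an unadjusted p under 0.05). No test compared the stages.

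Genes that lie near nfe2 were looked up by their order in RefSeq's annotation. Of the 20 genes on either side 22 could be tested, with 1 higher and 1 lower and a median of 0.09. Both shares lay below the 6.28% higher and 7.81% lower of all genes. The retinoic acid receptor gene rarga had 20.9, 20.3 and 10.4 against 6.08, 1.75 and 10.9 (-1.51 ± 0.40, adjusted p = 0.0107), with overlapping groups, and si:dkey-81p22.11 had 84.7, 136 and 114 against 158, 144 and 223 (0.64 ± 0.19, adjusted p = 0.0189). The rarga call ended without wildtype diquat replicate 1 or 2 or knockout diquat replicate 2 (adjusted p up to 0.0911), the other without wildtype replicate 1 or knockout replicate 3 (up to 0.156), and both with only the compared groups (adjusted p = 0.101 and 0.139).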

How the data were processed

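Poly(A) RNA of whole zebrafish was sequenced from directional libraries, per the labels' protocols. The deposited signal values are gene read counts that the authors divided by DESeq2 size factors, per the series' design text and the values themselves. The submitters' processing notes name FastQC 0.11.4, TopHat2 2.0.14, Bowtie2 2.2.5, SAMtools 0.1.19, HTSeq, DESeq2 1.10.1, R 3.2.3 and the build GRCz10; the strand that was counted is not given in the sources used here. All values came out as whole reads, within 0.01 of a read, once multiplied by a size factor found from their smallest steps, which for columns with a step near 1, knockout diquat replicate 3 among them, tests little. Because the values are not counts, limma 3.58.1 with a mean trend (R 4.3.3) was run on log2(value + 1), which understates the change of low genes, over all 18 libraries of a stage, for genes with 10 or more in at least 3 of them. Calls have a Benjamini-Hochberg adjusted p under 0.05. Alternatives were a pseudocount of 5, no filter, TMM scaling, a replicate block, quality weights, the compared groups alone, each library left out, and edgeR 4.0.16 and DESeq2 1.42.0 on recovered reads. Tables and figures were made with Python 3.11.15. Counting intervals cover 95% and, like the floor of 3 reads, counting error only.

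The libraries compared, the 37 gene lists (1651 entries, 44 of them not matched) and the tests were chosen with earlier results of these data known. Named were the CNC factors, the 15 largest rises and 15 largest falls among called genes whose groups did not overlap and whose higher group averaged 50 or more, up to 4 called members with the smallest p in each list, and called neighbours of nfe2; where another gene is named, the text says that its values had been seen. Gene names are those of the deposited table. Labels do not say whether pools came from separate clutches. Replicate numbers did not pair the libraries. Some called list members are not reported here.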

Additional observations from a re-analysis of the deposited data

Results flagged for a closer look

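The genotype difference of ihha (ENSDARG00000097968), which encodes the signalling protein Indian hedgehog, differed between diquat and water. In water the wildtype libraries had 55.5, 48.1 and 39.6 normalised reads and the knockout ones 0, 0 and 1.12, a single read. Under diquat the wildtype libraries had 28.2, 33.9 and 32.2 and the knockout ones 8.11, 10.5 and 3.98, so that knockout values were higher under diquat than in water and wildtype values lower. The difference of the differences was 3.23 ± 0.52 by limma (adjusted p = 0.013), 1.72 with a pseudocount of 5 (adjusted p = 0.0456) and 4.46 with edgeR (adjusted p = 0.0186), while DESeq2 gave no adjusted p. The call ended without wildtype diquat replicate 1, 2 or 3 (adjusted p = 0.0992, 0.0582 and 0.0695), wildtype water replicate 1 or 2 (0.134 and 0.091) or knockout water replicate 2 (0.054). The fitted size depends on the pseudocount because 1 read stands behind the knockout water group.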

How the results depend on the processing

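The genotype difference under diquat at 96 hpf called 1611 genes, 767 with only the compared groups and 979 to 1871 with 1 library left out. For the response difference, in place of 1 call there were 5 with a pseudocount of 5, 28 with quality weights, 2 with only the compared groups, 5 with edgeR, 23 with DESeq2 and 0 to 77 with 1 library left out. The 48 hpf contrast, with 110 calls, gave 211 with quality weights, 189 with only the compared groups and 55 to 89 with 1 library left out. Leaving out 1 library gave 1863 to 2210 calls in water, 1698 to 2173 in tBOOH and 2949 to 3375 at 2 hpf. Of 149 genes named by rule 135 were called, 94 of these in every fit, and no difference changed sign; 37 were not called with only the compared groups, a fit that made more calls in water (3685). The cause of these changes was not tested.

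Replicate numbers are shared by the labels of all groups. Same-numbered libraries did not deviate together (mean correlation -0.000254, against 0.000309 for other numbers; diquat pairs -0.00793, -0.0267 and -0.00568), and 8 of 18 libraries went best with their own number. The fit with a replicate block called 1576 genes, of which 1539 were among the 1611, and 2600 in water, 2330 in tBOOH, 1 for the response difference, 97 at 48 hpf and 3567 at 2 hpf.

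With under 1 M recovered reads a library, genes of a few reads such as nfe2 and most thrombocyte genes could not be tested.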

Other observations

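Some abundant transcripts stood high in knockout diquat replicate 2 alone, and were chosen after their values were seen. The glutathione transferase gene gsta.1 had 156, 152 and 177 normalised reads in the wildtype diquat libraries and 103, 557 and 133 in the knockout ones (0.29 ± 0.37, adjusted p = 0.655). The glutathione peroxidase gene gpx4a, which reduces lipid peroxides, had 127, 120 and 126 against 78.0, 431 and 84.6 (0.19 ± 0.38, adjusted p = 0.787). For irg1, the gene of the itaconate-producing enzyme, the values were 940, 927 and 899 against 605, 1253 and 615 (-0.25 ± 0.23, adjusted p = 0.521). In each of the 3 genes the other two knockout libraries lay below all wildtype ones. The same library had 863 normalised reads of the mitochondrial mRNA mt-cyb, where knockout diquat replicates 1 and 3 had 4697 and 5081. Knockout tBOOH replicate 1 had 2139, where knockout tBOOH replicates 2 and 3 had 4260 and 4544.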
